A study of Mus musculus with 75 samples.

Results

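The lysosomal genes and cathepsins described here were 32 genes taken by symbol from a whole-kidney RNA sequencing table of 32245 genes, and each of the 32 symbols was found in the table. The rule names the genes by symbol and uses no measured value, although the set was put together with earlier results of these data known. It held 6 cysteine cathepsins (Ctsb, Ctsc, Ctsh, Ctsl, Ctss, and Ctsz) with the asparagine-cutting protease legumain (Lgmn). It also held 3 other lysosomal peptidases (Ctsa, Ctsd, and Tpp1), 7 glycosidases (Gaa, Gla, Glb1, Gusb, Hexa, Man2b1, and Neu1), and 6 genes of lipid handling and saposins (Asah1, Grn, Lipa, Npc1, Npc2, and Psap). The remaining members encode 6 lysosomal membrane proteins (Cd63, Lamp1, Lamp2, Laptm4a, Laptm5, and Scarb2), the autophagy receptor Sqstm1, the transcription factor Tfeb, and the lysosomal calcium channel Mcoln1.

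Kidneys were sampled 3 days after unilateral ureter obstruction (UUO), a mouse model in which 1 ureter is tied, and the contralateral (CL) kidney served as the comparison. The study asked how vascular TIE2 signaling and the growth factor PDGFB bear on the injury, and it had 3 arms with 75 libraries in 12 groups. In the ABTAA arm, C57BL6/J or WT mice received ABTAA, an antibody that binds angiopoietin-2 and thereby activates the endothelial receptor TIE2, or a control IgG, giving 8 CL and 8 UUO libraries from IgG mice and 7 of each from ABTAA mice. In the Veptp arm, VeptpKO mice carried floxed Veptp (listed as Ptprb), which encodes a phosphatase that acts on TIE2, with a tamoxifen-inducible Cre driven by the endothelial Cdh5 promoter. Their VeptpWT controls were noninduced mice with 1 floxed allele and the same Cre, and the arm had 7 VeptpWT CL, 8 VeptpWT UUO, 6 VeptpKO CL, and 8 VeptpKO UUO libraries. In the Pdgfb arm, PdgfbKO mice carried floxed Pdgfb with a tamoxifen-inducible Cre driven by the Actb promoter, which acts across the body, and PdgfbWT controls carried floxed alleles without Cre, with 4 libraries in each of the 4 groups. Both gene deletion lines were of mixed background, mice were adults of both sexes, and every mouse received carprofen. The paper states that sex was unevenly spread in some groups. Its Pdgfb controls were mostly female, and its Pdgfb knockouts were of both sexes, so genotype may run with sex in that arm. Of the PdgfbWT CL kidneys, 2 came from sham-operated mice, which the labels do not mark. The labels do not say which CL and UUO kidney came from the same mouse.

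Lysosomes are acidic organelles in which hydrolases break down proteins, glycans, and lipids brought in by endocytosis, phagocytosis, and autophagy. In the kidney, proximal tubule cells use them to degrade proteins taken up from the filtrate, and macrophages hold many of them and express cathepsin S and Laptm5 strongly. The transcription factor TFEB binds the CLEAR element, a promoter sequence with the core CACGTG that is found at many lysosomal genes. The proton pump of the lysosomal membrane (V-ATPase) keeps the lumen acidic, and the same pump acts at the plasma membrane of intercalated cells of the collecting duct.

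To show how the set relates to that element, the bases around each gene's start (250 before it to 50 after it) were taken from RefSeq on GRCm38.p6 and were found for 28 of the 32 members. Ctsa, Lgmn, Psap, and Tfeb had more than 1 start, and a match at any start counted. For Ctsa and Lgmn the match lay at the start farther along the gene alone. The core CACGTG, which reads the same on both strands, was present for 9 of the 28 members (32.1%) and for 2187 of the 27025 table genes with such a sequence (8.09%). The longer word TCACGTGA, which contains the core, was present for 4 members (14.3%) and for 304 table genes (1.12%). The 6 stretches below span the matches of 6 of these 9 members, chosen because the promoter holds several matches or, for Glb1, because the gene had the lowest mean response of the members, with the matched words in capitals. They lie at chr2:164833745-164833799 on the plus strand (Ctsa), chr7:142387904-142388077 on the minus strand (Ctsd), chr8:3500433-3500495 on the plus strand (Mcoln1), chr8:13159085-13159166 on the plus strand (Lamp1), chr9:114401015-114401050 on the plus strand (Glb1), and chrX:134601178-134601248 on the minus strand (Gla).
Ctsa: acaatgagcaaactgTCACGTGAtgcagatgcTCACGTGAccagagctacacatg
Ctsd: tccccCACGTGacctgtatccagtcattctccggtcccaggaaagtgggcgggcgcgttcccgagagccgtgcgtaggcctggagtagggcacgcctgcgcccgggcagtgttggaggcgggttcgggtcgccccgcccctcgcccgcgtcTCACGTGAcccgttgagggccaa
Mcoln1: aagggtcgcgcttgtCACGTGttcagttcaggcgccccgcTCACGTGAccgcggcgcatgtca
Lamp1: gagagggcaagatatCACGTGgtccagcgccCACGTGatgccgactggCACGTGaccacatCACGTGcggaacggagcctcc
Glb1: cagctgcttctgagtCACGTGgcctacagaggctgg
Gla: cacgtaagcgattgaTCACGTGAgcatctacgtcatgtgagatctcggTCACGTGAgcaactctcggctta
The Lamp1 promoter held 4 copies of the core between 61 and 15 bases before the start. The Ctss promoter, at chr3:95526536-95526835 on the plus strand and shown because Ctss had the largest response to UUO, held neither word.
Ctss: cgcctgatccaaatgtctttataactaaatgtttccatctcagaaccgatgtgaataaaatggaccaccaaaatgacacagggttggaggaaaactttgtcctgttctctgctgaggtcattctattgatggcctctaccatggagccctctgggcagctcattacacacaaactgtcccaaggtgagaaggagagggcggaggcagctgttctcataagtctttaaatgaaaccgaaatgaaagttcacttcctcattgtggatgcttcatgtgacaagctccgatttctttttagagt
A match is a description of letters and not a shown binding site. Across the control groups of the 3 arms, the mean log2 change with UUO had a median of -0.03 over the 9 members with the core, ranging from -0.65 (Glb1) to 0.98 (Gla), and of 0.17 over 18 of the 19 members without it, ranging from -0.59 to 2.47. The other one, Tfeb, was not tested in each arm.

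Values are unique molecular counts per gene and library, and levels are counts scaled to a common library size (CPM) with TMM factors. Library totals ran from 172827 to 2341800 counts with a median of 757897, so 1 CPM stood for between 0.140 and 2.78 counts. Gla (0 to 54 counts) and Tfeb (0 to 31 counts) were close to the limit of this depth, while Cd63 (417 to 4352) and Ctsl (267 to 3033) were counted well in each library. A gene was called when edgeR's quasi-likelihood test gave a Benjamini-Hochberg adjusted p under 0.05 over all genes tested in the arm, of which the ABTAA arm had 9579, the Veptp arm 11916, and the Pdgfb arm 10923. Tfeb fell below the count filter in the ABTAA arm, so 31 members were tested there and 32 in the other arms. The samples are whole kidneys, in which fewer cells of a type and less RNA per cell cannot be told apart, and the labels do not say that each library came from a separate mouse, so p-values measure the spread between these samples.

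Some libraries stood apart or went against their labels. Pdgfb ranged from 16.6 to 24.9 CPM in the libraries labelled PdgfbKO CL and from 4.43 to 19.9 CPM in PdgfbWT CL, so the labelled deletion was not visible there. These CL levels rested on only 7 to 17 and 4 to 19 counts. In UUO kidneys Pdgfb ranged from 33.4 to 40.6 CPM in PdgfbKO and from 43.2 to 57.8 CPM in PdgfbWT. The paper reports lower Pdgfb expression in the knockout for contralateral as well as UUO kidneys. Ptprb overlapped between VeptpKO (12.7 to 66.1 CPM) and VeptpWT (26.3 to 93.5 CPM) UUO kidneys. The paper reports reduced VEPTP protein in kidneys of its knockout mice. In 24 libraries, among them the 4 PdgfbKO UUO libraries, both Xist and the Y-linked genes reached 10 counts. The ABTAA and Veptp arms mixed 2 forms of library name, 45 plain names and 30 names in which a low line joins letter and number (joined names) over the series, each form in every group of these arms, and the Pdgfb arm had plain names alone. In the Veptp arm, the numbers 3, 4, 7, and 8 of the joined names carried opposite Veptp labels in the CL and the UUO library. Within plain UUO libraries Ptprb was at 28.6 to 66.1 CPM in VeptpKO and 49.5 to 93.5 CPM in VeptpWT. Within joined-name UUO libraries it was at 12.7 to 27.6 against 26.3 to 34.4 CPM, so the genotypes overlapped less within a form.

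The form of the library name went with large differences for several members in the Veptp arm. In its CL kidneys, Lamp1, a heavily glycosylated protein that lines the lysosomal membrane, had a lowest, median, and highest level of 1267, 1450, and 1821 CPM in the 5 plain libraries against 280.5, 361.5, and 486.3 CPM in the 8 joined-name libraries. The tetraspanin Cd63 had 2300, 2517, and 3643 CPM against 598.0, 752.3, and 1045 CPM, and Ctsl, a broad cysteine protease, had 1410, 1521, and 2005 CPM against 430.7, 559.1, and 693.2 CPM. The tripeptidyl peptidase Tpp1 went the other way, with 117.7, 139.9, and 153.7 CPM against 285.5, 340.5, and 372.7 CPM. In all, 7 members were higher and 4 lower in the joined-name libraries without overlap among these CL kidneys, beside 20.9% of all genes tested in either direction, and 5 were higher and 3 lower among the UUO kidneys, beside 17.3% of all genes. The ABTAA arm showed 3 such members in CL kidneys (Ctsb, Lgmn, and Gusb, each higher with joined names), beside 5.96% of genes, and 3 in UUO kidneys (Ctsb, Ctsc, and Asah1, each higher), beside 5.10%, and Lamp1 overlapped there between the forms. The sources used here do not say what the name forms stand for. Results of these 2 arms are given over all libraries, and within each form for the counts of calls and for Ctss, Laptm5, Ctsc, Ctsd, Gla, Scarb2, Glb1, Neu1, Lipa, and Mcoln1 in IgG mice.

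**Figure D1:**
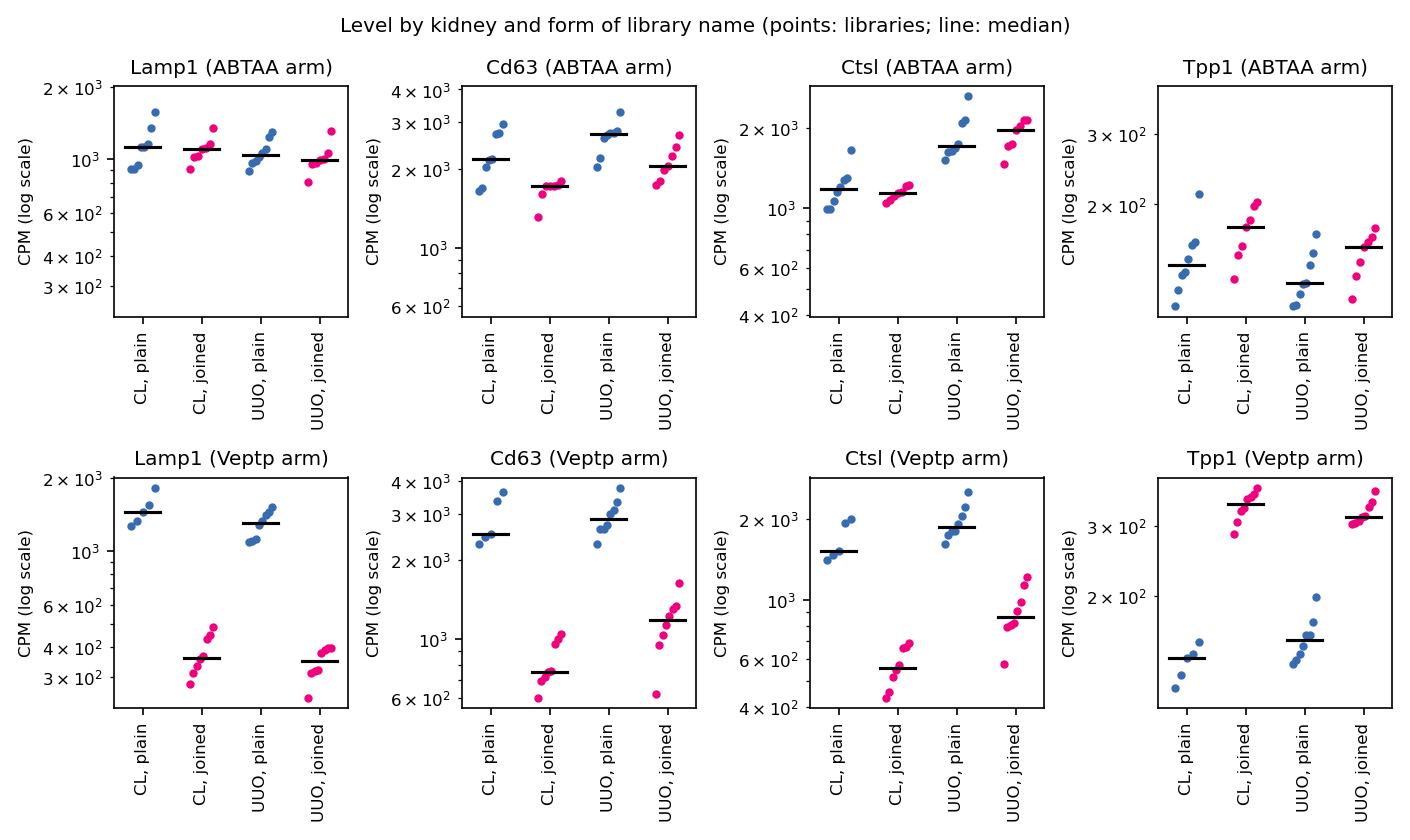
Levels of Lamp1, Cd63, Ctsl, and Tpp1 in CPM (log scale) by kidney and form of library name, in the ABTAA arm (top) and the Veptp arm (bottom), with 1 point per library and a line at the median. In the Veptp arm the plain and joined-name libraries did not overlap for these 4 genes, whereas in the ABTAA arm they overlapped for each of them.

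Ctss and Laptm5 were called higher in obstructed kidneys in the 6 groups of mice, and the calls of the other members varied between groups. Lower calls made up no larger share of the members than of all genes in any of the 6, so nothing is read from their number. In IgG mice, 12 of 31 members were higher and 4 lower in UUO than in CL kidneys, beside 16.0% of all genes called higher and 18.4% called lower. In ABTAA mice 13 of 31 were higher and 1 lower, beside 12.7% and 12.5% of all genes. In the numbered libraries of ABTAA mice, which were taken to be paired, the fit with the replicate block called 18 members and the fit without it 12. The 18 held the 14 called over all libraries and also Cd63 (log2 change 0.44), Psap (0.49), Neu1 (-0.60), and Lipa (-0.41), so values given as not called in ABTAA mice below are those of the fit without the block. VeptpWT kidneys had 6 of 32 members higher and none lower, beside 10.0% and 8.38%, with 13 at an unadjusted p under 0.05. DESeq2 called 10 higher and none lower, beside 11.3% and 8.5%. With the name form as a covariate, edgeR called 14 higher and 3 lower, beside 16.6% and 17.3%. VeptpKO kidneys had 2 of 32 higher and none lower, beside 4.47% and 3.47%, with 7 at an unadjusted p under 0.05, and DESeq2 called 3 higher and none lower, beside 5.57% and 4.36%. PdgfbWT kidneys had 8 of 32 higher and 6 lower, beside 17.9% and 19.4%, a share of members close to that of all genes. PdgfbKO kidneys had 4 of 32 higher and none lower, beside 3.94% and 2.40%, with 11 at an unadjusted p under 0.05, and DESeq2 called 5 higher and none lower, beside 3.32% and 2.34%. Over the 6 comparisons, 14 members were called higher at least once, 7 were called lower at least once, 11 were never called, and no member was called in opposite directions. The median log2 change over the members was 0.24 in IgG, 0.34 in ABTAA, 0.25 in VeptpWT, 0.15 in VeptpKO, 0.03 in PdgfbWT, and 0.14 in PdgfbKO mice, beside medians of all genes tested between -0.01 and 0.04.

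These splits depended on the scaling. With library totals in place of TMM factors, the median of all genes moved to a log2 change of 0.21 in IgG, 0.12 in ABTAA, 0.13 in VeptpWT, 0.12 in VeptpKO, 0.40 in PdgfbWT, and 0.08 in PdgfbKO mice. The members called higher and lower were then 18 and 2 in IgG, 16 and 0 in ABTAA, 11 and 0 in VeptpWT, 6 and 0 in VeptpKO, 17 and 1 in PdgfbWT, and 6 and 0 in PdgfbKO mice. On that scale 25% of all genes were called higher and 11.7% lower in IgG mice, 16.3% and 8.61% in ABTAA, 11.5% and 4.62% in VeptpWT, 5.09% and 2.05% in VeptpKO, 39.7% and 10.7% in PdgfbWT, and 5.13% and 1.43% in PdgfbKO mice. Changes given next are on the TMM scale, relative to the typical gene, and a decrease lost with library totals is named beside its gene. The name form moved the counts as well. Called members numbered 15 in IgG, 12 in ABTAA, 14 in VeptpWT, and 8 in VeptpKO mice in the joined-name libraries alone, beside 29.1%, 24.1%, 25.7%, and 21.3% of all genes in the same order. In the plain libraries alone they numbered 12, 11, 6, and 0, beside 23.3%, 11.6%, 14%, and 0% of all genes. With the name form as a covariate they numbered 21, 15, 17, and 10, beside 40.2%, 32.4%, 33.9%, and 21.5% of all genes, so calls over all genes rose as well, and in VeptpWT mice the additional calls included Grn (adjusted p = 1.261e-06). Statements above and below that a member was not called or never called are those of the fit without this covariate. Without the libraries in which both Xist and the Y-linked genes reached 10 counts, the members called numbered 13 in IgG, 9 in ABTAA, 6 in VeptpWT, 2 in VeptpKO, and 6 in PdgfbWT mice, the last from 2 libraries against 2, beside 23.6%, 16.3%, 14%, 7.66%, and 18.8% of all genes. The calls lost there were those of Mcoln1, Sqstm1, Lipa, and Gla in IgG mice, of Glb1, Sqstm1, Npc2, Lgmn, and Ctsb in ABTAA mice, and of Lamp1, Hexa, Ctsh, Grn, Neu1, Lipa, Lamp2, and Gla in PdgfbWT mice, and comparisons with PdgfbKO UUO kidneys had no library left in that group.

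**Figure D2:**
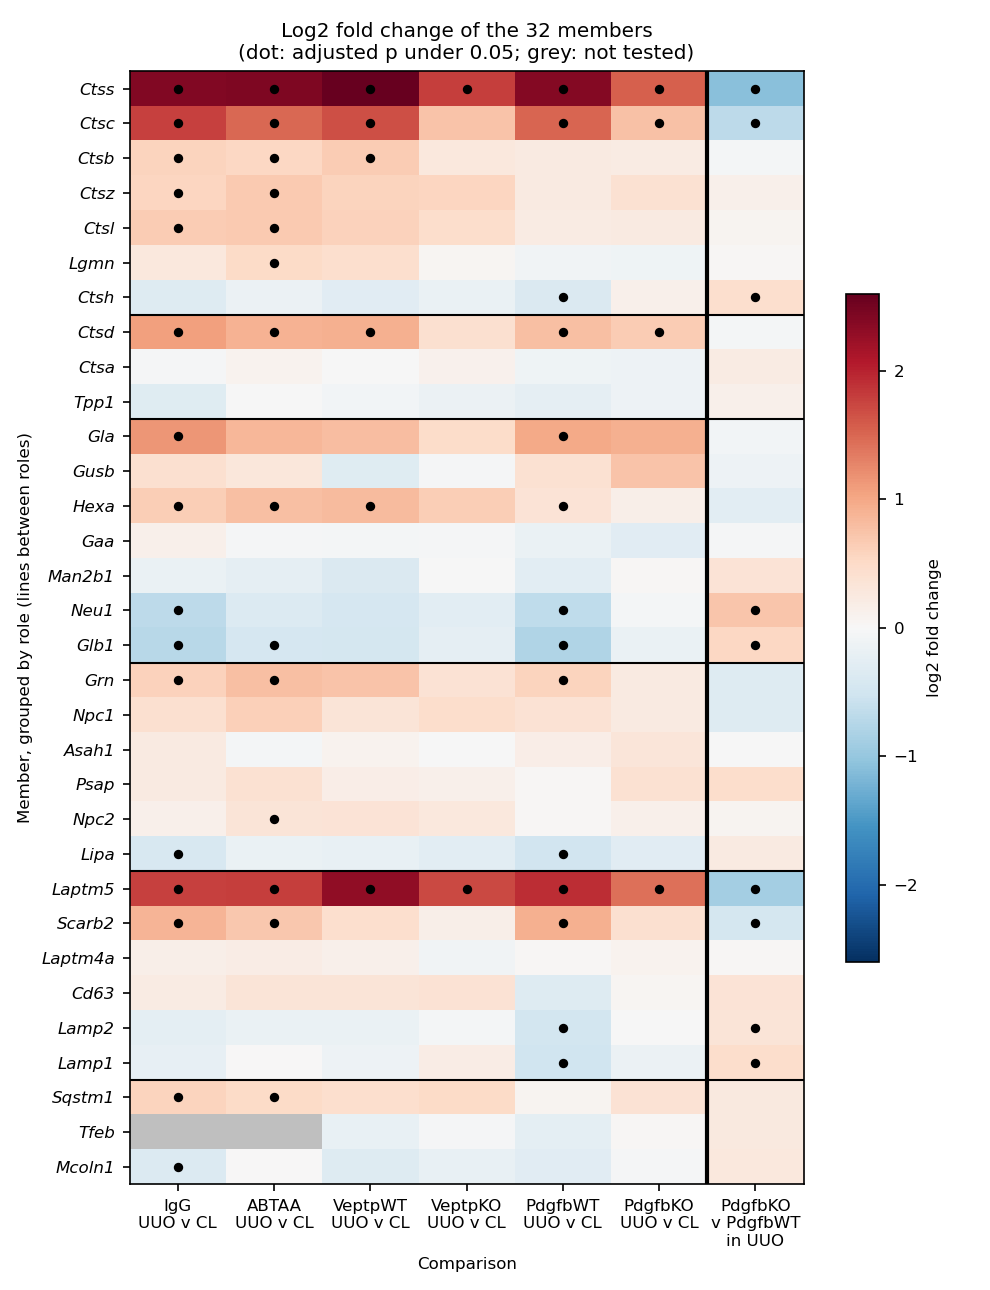
Log2 fold change of the 32 members (rows, grouped by role) between UUO and CL kidneys in 6 groups of mice and between PdgfbKO and PdgfbWT UUO kidneys, where a dot marks an adjusted p under 0.05 and grey marks genes not tested. Ctss and Laptm5 were called higher in the 6 UUO comparisons and lower in the last column, and Glb1 and Neu1 had negative values in the 6 UUO comparisons and were called higher in the last column.

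Cathepsin S (Ctss), an endopeptidase that cuts the invariant chain in antigen-presenting cells, rose most of all members. Its lowest, median, and highest levels were 6.84, 29.5, and 42.8 CPM in IgG CL against 126.2, 150.7, and 241.4 CPM in IgG UUO kidneys, without overlap. In ABTAA mice they were 10.5, 31.4, and 37.4 CPM in CL against 76.2, 139.1, and 181.1 CPM in UUO kidneys, and in VeptpWT mice 10.9, 18.8, and 49.4 CPM against 63.1, 126.6, and 222.0 CPM, again without overlap. VeptpKO kidneys overlapped, with 3.84, 12.2, and 121.9 CPM in CL and 37.8, 84.7, and 146.1 CPM in UUO, and the highest CL value was that of replicate 2. The log2 change was 2.42 (SE 0.243, adjusted p = 1.62e-09) in IgG, 2.43 in ABTAA, 2.61 in VeptpWT, 1.80 (SE 0.512, adjusted p = 0.02444) in VeptpKO, 2.39 in PdgfbWT, and 1.54 in PdgfbKO mice by edgeR. Without VeptpKO CL replicate 2 the VeptpKO change was 2.88, and without any of the other 5 VeptpKO CL libraries it lost its call, with changes from 1.60 to 1.63. Within name forms the VeptpKO change was 0.62 in plain and 2.67 in joined-name libraries, whereas the IgG change was 2.43 and 2.38.

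Laptm5, a membrane protein of lysosomes in blood cells, was the other member called higher in each of the 6 comparisons. It had 2.48, 15.3, and 31.1 CPM in IgG CL and 32.7, 57.5, and 96.6 CPM in IgG UUO kidneys as lowest, median, and highest level. In VeptpWT mice it had 10.8, 17.2, and 24.6 CPM in CL and 73.8, 89.3, and 101.0 CPM in UUO kidneys. The ranges did not overlap in IgG, ABTAA, VeptpWT, PdgfbWT, or PdgfbKO mice, and they overlapped in VeptpKO mice. Log2 changes were 1.78 (SE 0.281) in IgG, 1.80 in ABTAA, 2.3 in VeptpWT, 1.72 in VeptpKO, 1.92 in PdgfbWT, and 1.44 in PdgfbKO mice, with adjusted p = 0.0003097 in VeptpKO and 5.021e-06 in IgG mice. Within plain and joined-name libraries the change was 1.57 and 2.04 in IgG and 0.93 and 2.08 in VeptpKO mice.

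Cathepsin C (Ctsc), a dipeptidyl peptidase that activates serine proteases of immune granules, rose in 5 of the 6 comparisons. The lowest, median, and highest levels were 17.8, 54.2, and 63.2 CPM in IgG CL against 96.6, 149.8, and 293.4 CPM in IgG UUO kidneys. In VeptpKO mice they were 36.1, 42.3, and 81.3 CPM in CL against 42.4, 94.9, and 124.8 CPM in UUO kidneys, so the ranges overlapped. The log2 change was 1.77 (SE 0.267) in IgG, 1.49 in ABTAA, 1.68 in VeptpWT, 1.51 in PdgfbWT, and 0.75 in PdgfbKO mice, and 0.74 (adjusted p = 0.06454) in VeptpKO mice. In plain and joined-name libraries it was 1.48 and 1.92 in IgG and 0.67 and 0.69 in VeptpKO mice. The PdgfbKO call (adjusted p = 0.0147) was lost without PdgfbKO CL replicate 1 or PdgfbKO UUO replicate 4, with an adjusted p of up to 0.08699.

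The other cysteine cathepsins changed less. Ctsb had 587.1, 802.9, and 1036 CPM in IgG CL and 823.5, 1153, and 1672 CPM in IgG UUO kidneys, with overlap, and its log2 change was 0.57 in IgG, 0.53 in ABTAA, and 0.65 in VeptpWT mice, each called. The ABTAA call of Ctsb was lost without any of 8 single libraries, among them ABTAA CL replicates 1 to 4. Ctsl (0.67 and 0.69) and Ctsz (0.56 and 0.68) were called higher in IgG and ABTAA mice and in no other comparison of this fit. In the Veptp arm, over both genotypes, the Ctsl median was 1521 CPM in CL and 1862 CPM in UUO kidneys of plain libraries. In joined-name libraries it was 559.1 and 861.4 CPM. The Ctsz medians, CL before UUO, were 335.5 and 447.4 CPM in plain and 197.3 and 364.1 CPM in joined-name libraries. Ctsh, an aminopeptidase expressed in many epithelia, was the single cathepsin called lower, in PdgfbWT mice (log2 change -0.38, adjusted p = 0.02349), a call lost without PdgfbWT CL replicate 4 and with library totals, where the change was -0.02. Lgmn was called higher in ABTAA mice alone (0.50), which is not a test against the other groups, and that call was lost without any of 7 single libraries. Of the 7 genes of this class, 5 were called higher in IgG mice, beside 16.0% of all genes, 6 in ABTAA mice, beside 12.7%, and 3 in VeptpWT mice, beside 10.0%. In VeptpKO mice 1 was higher, beside 4.47%, in PdgfbWT mice 2 were higher and 1 lower, beside 17.9% and 19.4%, and in PdgfbKO mice 2 were higher, beside 3.94%. The class holds so few genes that nothing is read from these counts in any of the 6 groups.

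Among the other peptidases, the aspartic protease cathepsin D (Ctsd), whose promoter holds both words shown above, was called higher in 5 comparisons. It had 512.8, 579.1, and 691.3 CPM in IgG CL against 1041, 1209, and 1521 CPM in IgG UUO kidneys as lowest, median, and highest level, without overlap. In PdgfbKO mice the values were 485.3, 533.0, and 620.2 CPM in CL and 750.0, 820.4, and 1049 CPM in UUO kidneys. Log2 changes were 1.07 (SE 0.138, adjusted p = 1.5e-07) in IgG, 0.91 in ABTAA, 0.92 in VeptpWT, 0.77 in PdgfbWT, and 0.66 in PdgfbKO mice, and 0.42 (adjusted p = 0.1939) in VeptpKO mice. By name form it was 1.25 in plain and 0.95 in joined-name libraries of IgG mice, and 0.27 and 0.57 in those of VeptpKO mice. The PdgfbKO call was lost without PdgfbKO UUO replicate 2 (adjusted p = 0.06614). Ctsa, a carboxypeptidase that also stabilizes Glb1 and Neu1 in a complex, and Tpp1 were never called.

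Glycosidases split by gene. Gla, the galactosidase lacking in Fabry disease, and Hexa, a subunit of hexosaminidase A, were called higher in some comparisons. Gla had 2.48, 4.37, and 15.2 CPM in IgG CL and 0, 16.4, and 25.1 CPM in IgG UUO kidneys, with overlap, and a log2 change of 1.15 (SE 0.400, adjusted p = 0.02389). It was 1.31 in the joined-name libraries alone and was not tested in the plain ones. In PdgfbWT mice Gla had 4.43, 8.55, and 10.3 CPM in CL and 12.5, 15.1, and 18.8 CPM in UUO kidneys without overlap, and a change of 0.98 (adjusted p = 0.01865) that was lost without PdgfbWT CL replicate 1 or 4 or PdgfbWT UUO replicate 1. The Hexa change was 0.64 in IgG, 0.78 in ABTAA, 0.82 in VeptpWT, and 0.36 in PdgfbWT mice, each called, although the PdgfbWT call was lost without any of 8 single libraries, and 0.64 in VeptpKO and 0.14 in PdgfbKO mice, neither called.

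Glb1 (beta-galactosidase) and Neu1 (sialidase), which act together in that complex, had negative changes in the 6 comparisons. Glb1 had 152.3, 167.6, and 260.0 CPM in IgG CL against 66.4, 116.3, and 140.3 CPM in IgG UUO kidneys, without overlap, and was lower by a log2 change of -0.71 (SE 0.158, adjusted p = 0.0004984). It was also called in ABTAA (-0.44, adjusted p = 0.04774) and PdgfbWT mice (-0.78, adjusted p = 6.332e-05), the ABTAA call being lost without any of 12 single libraries. Neu1 had 298.6, 338.1, and 510.3 CPM in IgG CL and 181.1, 233.4, and 317.3 CPM in IgG UUO kidneys, with overlap, and was lower in IgG (-0.67, adjusted p = 0.0003855) and PdgfbWT mice (-0.67, adjusted p = 0.006027). With library totals Glb1 stayed called in IgG (-0.48) and PdgfbWT mice (-0.41) and Neu1 in IgG mice (-0.44), whereas the ABTAA change of Glb1 was -0.31 (adjusted p = 0.1651) and the PdgfbWT change of Neu1 was -0.31, neither called. Within name forms, plain before joined, the IgG change was -0.80 and -0.57 for Glb1 and -0.52 and -0.77 for Neu1, and the ABTAA change of Glb1 was -0.17 and -0.74. Gaa, Gusb, and Man2b1 were never called. Exons of Glb1 overlap those of Tmppe on the same strand, so their counts may not be fully separate.

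Of the 6 genes of lipid handling, 3 were called at least once. Grn, whose product is cut into granulins in the lysosome, was called higher in IgG (log2 change 0.60), ABTAA (0.77), and PdgfbWT mice (0.58), with 109.1, 151.9, and 203.7 CPM in IgG CL and 192.3, 230.6, and 289.7 CPM in IgG UUO kidneys. Lipa, the acid lipase that splits cholesteryl esters, had 114.0, 147.9, and 173.1 CPM in IgG CL and 82.0, 108.5, and 135.6 CPM in IgG UUO kidneys. It was called lower in IgG (-0.42, adjusted p = 0.01637) and PdgfbWT mice (-0.50, adjusted p = 0.008955), and not with library totals, where the changes were -0.22 and -0.15. The IgG change of Lipa was -0.22 in plain and -0.57 in joined-name libraries. The sterol carrier Npc2 was called higher in ABTAA mice (0.34), a call lost without any of 7 single libraries, and Asah1, Npc1, and, without the block, Psap were never called.

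Membrane proteins other than Laptm5 differed among themselves. Scarb2, which carries glucocerebrosidase to the lysosome, had 20.5, 51.9, and 64.7 CPM in IgG CL against 84.2, 93.0, and 105.7 CPM in IgG UUO kidneys, without overlap. Its log2 change was 0.89 (SE 0.138, adjusted p = 3.509e-06) in IgG, 0.70 in ABTAA, and 0.93 in PdgfbWT mice, each called, and 0.43, 0.16, and 0.41 in VeptpWT, VeptpKO, and PdgfbKO mice, none called. In IgG mice it was 1.03 in plain and 0.78 in joined-name libraries. Lamp1 and Lamp2, the abundant structural proteins, were called lower in PdgfbWT mice (-0.51, adjusted p = 0.002759, and -0.48, adjusted p = 0.002527), and with library totals their changes were -0.15 and -0.13, neither called. Laptm4a and, without the block, Cd63 were never called. Tfeb had group medians from 6.97 to 13.7 CPM and was called in no comparison in which it was tested, with log2 changes of -0.19 in VeptpWT, -0.03 in VeptpKO, -0.25 in PdgfbWT, and 0.03 in PdgfbKO mice. Mcoln1 had 50.2, 62.7, and 79.9 CPM in IgG CL and 33.9, 51.4, and 66.4 CPM in IgG UUO kidneys and was called lower there (-0.37, adjusted p = 0.04893), a call lost without any of 17 single libraries of the arm and with library totals (-0.16), and the change was -0.43 in plain and -0.28 in joined-name libraries. The autophagy receptor Sqstm1 was called higher in IgG (0.59) and ABTAA mice (0.50), the latter lost without any of 8 single libraries.

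**Figure D3:**
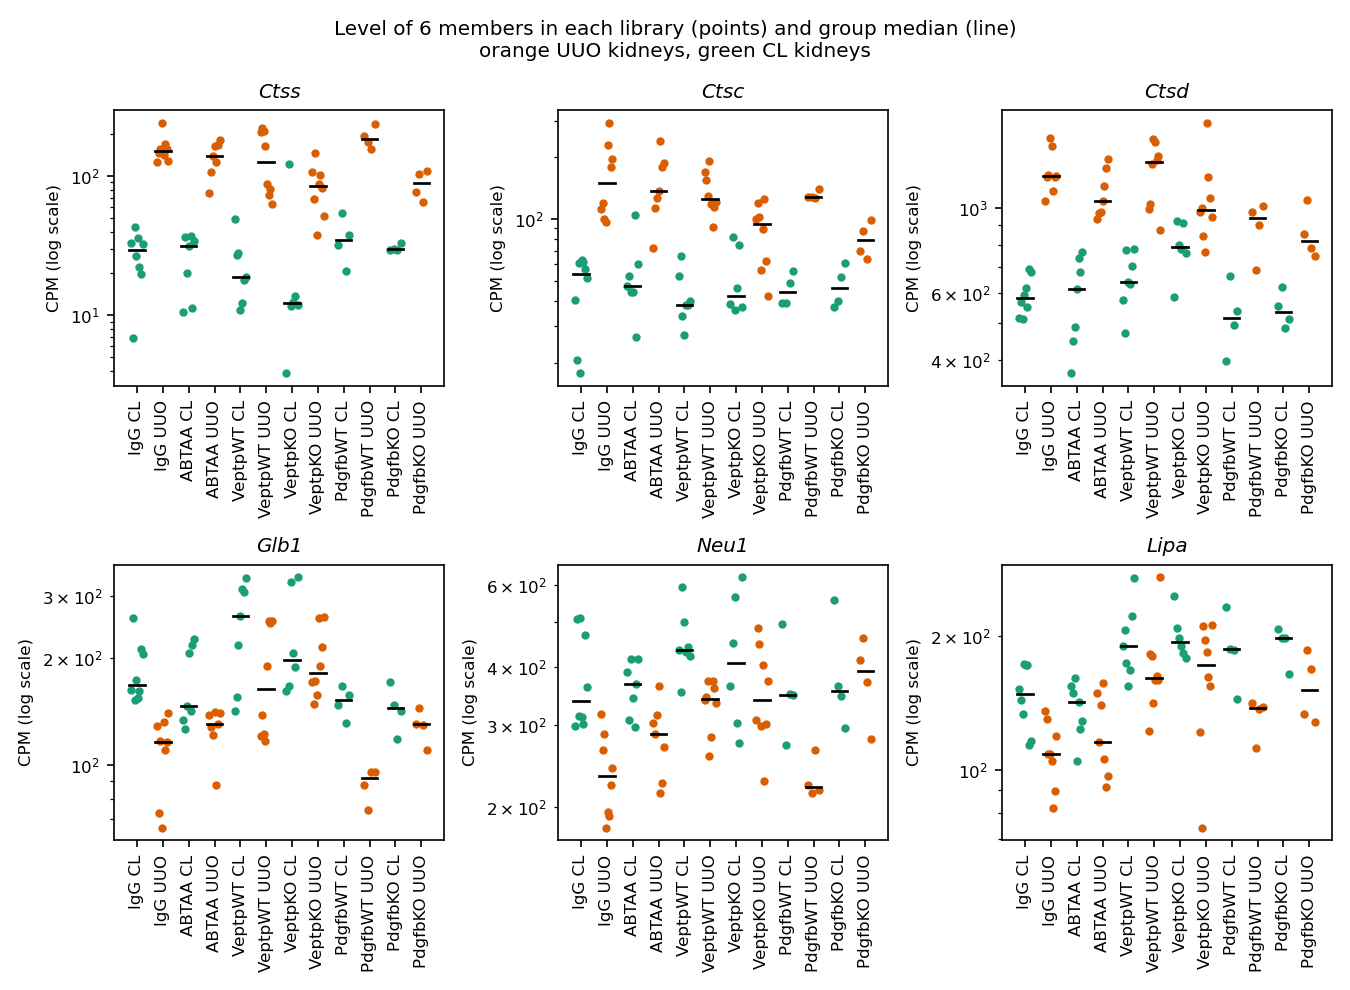
Levels in CPM (log scale) of Ctss, Ctsc, Ctsd, Glb1, Neu1, and Lipa in each of 75 libraries over the 12 groups, with CL kidneys in green, UUO kidneys in orange, and a line at each group median. Ctss separated UUO from CL libraries in 5 of 6 pairs of groups, whereas Glb1 medians were lower in UUO kidneys with overlap in several pairs.

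Markers of other cells moved with these genes. The 16 macrophage markers, such as Adgre1 and Csf1r, had a summed level of 171.1 to 325.9 CPM in IgG CL and 710.9 to 1372 CPM in IgG UUO kidneys, and 16 of them were called higher in IgG, 15 in ABTAA, 15 in VeptpWT, 12 in VeptpKO, 16 in PdgfbWT, and 10 in PdgfbKO mice. Of all genes, 16.0%, 12.7%, 10.0%, 4.47%, 17.9%, and 3.94% were called higher in the same order. No macrophage marker was at 0 throughout a group. VeptpKO CL replicate 2, which had the highest Ctss of the CL kidneys, had a macrophage sum of 668.4 CPM, the highest of its group. The 13 proximal tubule markers, such as Lrp2 and Slc34a1, summed to 14590 to 40850 CPM in IgG CL and 6960 to 11800 CPM in IgG UUO kidneys, and 12, 10, 8, 6, 13, and 5 of them were called lower in the same order of groups. The shares of all genes called lower were 18.4%, 12.5%, 8.38%, 3.47%, 19.4%, and 2.40%. The 5 pan-leukocyte markers summed to 44.5 to 96.6 CPM in IgG CL and 193.1 to 382.0 CPM in IgG UUO kidneys, the 6 fibroblast markers were all called higher in IgG, ABTAA, VeptpWT, and PdgfbWT mice, and the 8 lymphocyte and neutrophil markers passed no count filter. The 5 endothelial markers had 2 called higher and 1 lower in IgG mice, and the 6 other nephron markers had 4 called lower. The part of these cells in the members' changes was not tested.

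Other genes of the pathway were followed in lists kept apart from the 32 members. Of the 21 subunits of the vacuolar proton pump, none was called higher in the 6 comparisons, and 12 were called lower in IgG, 9 in ABTAA, 4 in VeptpWT, 2 in VeptpKO, 17 in PdgfbWT, and 2 in PdgfbKO mice. Of all genes, 18.4%, 12.5%, 8.38%, 3.47%, 19.4%, and 2.40% were called lower in the same order. Median log2 changes over the pump were -0.45, -0.29, -0.39, -0.30, -0.61, and -0.15, beside medians of all genes between -0.01 and 0.04. With library totals the pump median stayed negative in each comparison, at -0.25 in IgG and -0.24 in PdgfbWT mice, where 8 subunits were called lower and 1 higher in both. On that scale 11.7% of all genes were called lower and 25% higher in IgG mice, and 10.7% and 39.7% in PdgfbWT mice. In IgG mice the catalytic subunit Atp6v1a changed by -0.79, Atp6v1e1 by -0.90, and the intercalated cell subunits Atp6v0a4 and Atp6v1b1 by -1.06 and -1.28, each called. Atp6v1b1 also stands in the list of other nephron markers, of which 4 fell in IgG mice.

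Among 39 other lysosomal hydrolases, 3 were called higher and 8 lower in IgG mice and 5 and 12 in PdgfbWT mice, with medians of -0.13 and -0.11 that turned to 0.07 and 0.25 with library totals. Ctsk, a collagen-cutting cathepsin, rose by 1.67 in IgG mice, whereas the sulfatase Arsb (-1.21), the sphingomyelinase Smpd1 (-0.98), and the ganglioside activator Gm2a (-1.05) fell. Of 16 other membrane proteins, 15 were tested in IgG mice, with 2 called higher and 2 lower, among them Tmbim1 (0.99) and Mfsd1 (-0.58). Of 13 sorting genes, 12 were tested in IgG mice, with the endocytic receptor Lrp1 higher (1.45) and 2 genes lower, among them Gga2 (-0.40). Cystatin B (Cstb), which inhibits cysteine cathepsins, rose by 1.74, and cystatin C (Cst3) changed by 0.24 and was not called. Of 16 lysosomal regulators 3 were lower (Fnip2 -0.96, Mtor -0.73, and Lamtor5 -0.62), and of 16 autophagy genes 4 were lower, among them Gabarapl1 (-0.80) and Bnip3 (-0.76), and none of either list was higher in IgG mice. Beside the 18.4% of all genes called lower there, the counts of lower hydrolases, regulators, and autophagy genes were near the background. In PdgfbWT mice the 5 higher and 12 lower hydrolases stood beside 17.9% and 19.4% of all genes.

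**Figure D4:**
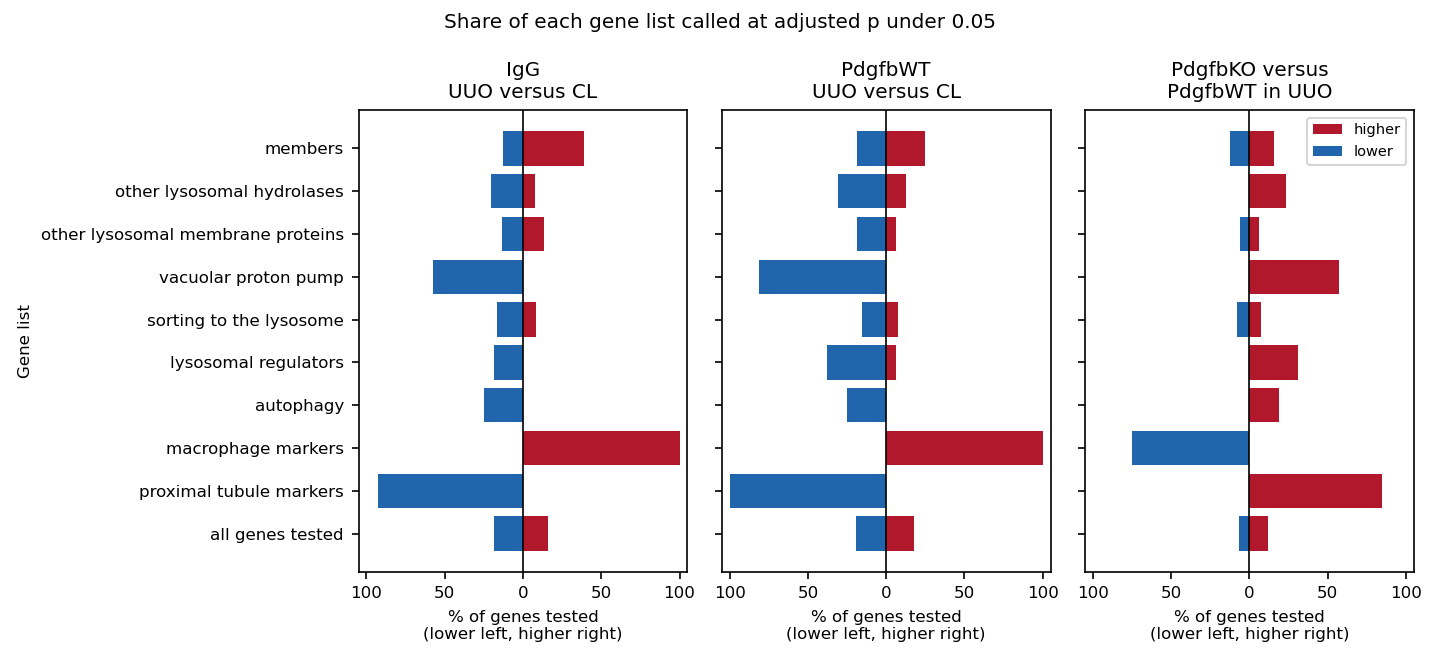
Percent of the tested genes of each list called higher (red, to the right) or lower (blue, to the left) in IgG and PdgfbWT UUO against CL kidneys and in PdgfbKO against PdgfbWT UUO kidneys, with all genes tested in the bottom bar. The proton pump was called lower in the first 2 panels and higher in the last, and the members were called in both directions in each panel.

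Neither TIE2 activation by ABTAA nor the endothelial Veptp deletion gave a called member. Between ABTAA and IgG mice, edgeR called no member in UUO kidneys, in CL kidneys, or for the difference between the responses to UUO, beside 0% of all genes in each. No member had an unadjusted p under 0.05 in any of the 3, and DESeq2 also called none. In UUO kidneys Ctss differed by a log2 of -0.18 (SE 0.225), Ctsc by -0.15 (SE 0.258), Glb1 by 0.17 (SE 0.164), and Neu1 by 0.24 (SE 0.150), none of them called. Between VeptpKO and VeptpWT mice, edgeR and DESeq2 called no member in UUO kidneys, in CL kidneys, or for the difference between the responses. Beside this edgeR called 0% of all genes in each, and DESeq2 called 0.00839% in UUO kidneys and 0% in the others. With edgeR 1 member had an unadjusted p under 0.05 in UUO kidneys, none in CL kidneys, and 1 for the difference. That member was Ctsc, named after its values were seen, at -0.65 in UUO kidneys (SE 0.223, unadjusted p = 0.00649, adjusted p = 0.9999), with -0.82 within plain and -0.50 within joined-name libraries, and at -0.94 for the difference between the responses (adjusted p = 0.9996). Summed macrophage markers were at 387.4 to 1164 CPM in VeptpKO and 815.9 to 1350 CPM in VeptpWT UUO kidneys, and none of the 16 was called between them.

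In the Pdgfb arm, 9 of 32 members were called between the genotypes in UUO kidneys, 5 higher and 4 lower in PdgfbKO, beside 12.0% of all genes higher and 6.58% lower, and the ranges of these 9 did not overlap. The 4 lower members were Ctss, Laptm5, Ctsc, and Scarb2. The 5 higher members were Neu1, Glb1, Lamp1, Ctsh, and Lamp2. The split depended on the scaling. With library totals, which moved the median of all genes to -0.28, no member was called higher and 7 of 32 were called lower, beside 6.11% and 21.8% of all genes, and the 5 higher members had changes of 0.44, 0.27, 0.18, 0.18, and 0.07. TMM factors had a median of 1.19 in PdgfbWT UUO and 1.00 in PdgfbKO UUO libraries. DESeq2 called 5 members higher and 3 lower, beside 10.9% and 4.72% of all genes, and edgeR's exact test called 6 higher and 4 lower, beside 12.5% and 8.53%.

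Ctss had 194.5, 176.9, 156.7, and 236.1 CPM in the 4 PdgfbWT UUO libraries and 76.7, 103.1, 64.9, and 109.4 CPM in the 4 PdgfbKO UUO libraries. The CL kidneys of both genotypes were lower, with 32.1, 54.4, 20.7, and 37.7 CPM in PdgfbWT and 29.4, 30.0, 29.5, and 32.9 CPM in PdgfbKO. The genotype difference in UUO kidneys was a log2 of -1.08 (SE 0.186, adjusted p = 0.0001808 by edgeR). Each PdgfbKO UUO library therefore lay between its CL group and the PdgfbWT UUO group. Laptm5 had 103.5, 85.8, 61.1, and 109.7 CPM in PdgfbWT UUO and 43.4, 48.2, 41.0, and 56.3 CPM in PdgfbKO UUO libraries (-0.89, SE 0.210, adjusted p = 0.003711). Ctsc had 127.3, 127.4, 126.9, and 140.1 CPM in PdgfbWT UUO and 70.1, 87.4, 64.1, and 99.2 CPM in PdgfbKO UUO libraries (-0.68, SE 0.160, adjusted p = 0.003818). For these 3 genes the PdgfbWT UUO libraries were highest, the PdgfbKO UUO libraries next, and the CL libraries of both genotypes lowest. Scarb2 had 94.1, 82.8, 89.3, and 120.5 CPM against 76.7, 76.2, 64.1, and 67.2 CPM (-0.45, SE 0.155, adjusted p = 0.04247), a call lost without any of 8 single libraries of the arm.

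Glb1 had 87.8, 74.4, 95.2, and 95.03 CPM in PdgfbWT UUO and 130.1, 144.6, 129.8, and 110.2 CPM in PdgfbKO UUO libraries (0.54, SE 0.139, adjusted p = 0.007275). Neu1 had 223.9, 214.4, 265.8, and 218.5 CPM against 413.7, 460.7, 372.4, and 280.5 CPM (0.72, SE 0.187, adjusted p = 0.007983). For both genes the PdgfbKO UUO libraries overlapped the CL libraries of their genotype, which were at 117.9 to 171.3 CPM for Glb1 and 296.1 to 556.1 CPM for Neu1. Lamp1 had 893.3, 761.1, 711.7, and 827.8 CPM in PdgfbWT UUO and 1241, 1079, 1056, and 1017 CPM in PdgfbKO UUO libraries (0.46, SE 0.129, adjusted p = 0.01417). Ctsh (0.44, adjusted p = 0.01698) and Lamp2 (0.34, adjusted p = 0.04808) showed the same direction, the first call being lost without PdgfbKO UUO replicate 2 or 3 and the second without any of 12 single libraries. Psap (0.46, adjusted p = 0.0624) was not called.

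**Figure D5:**
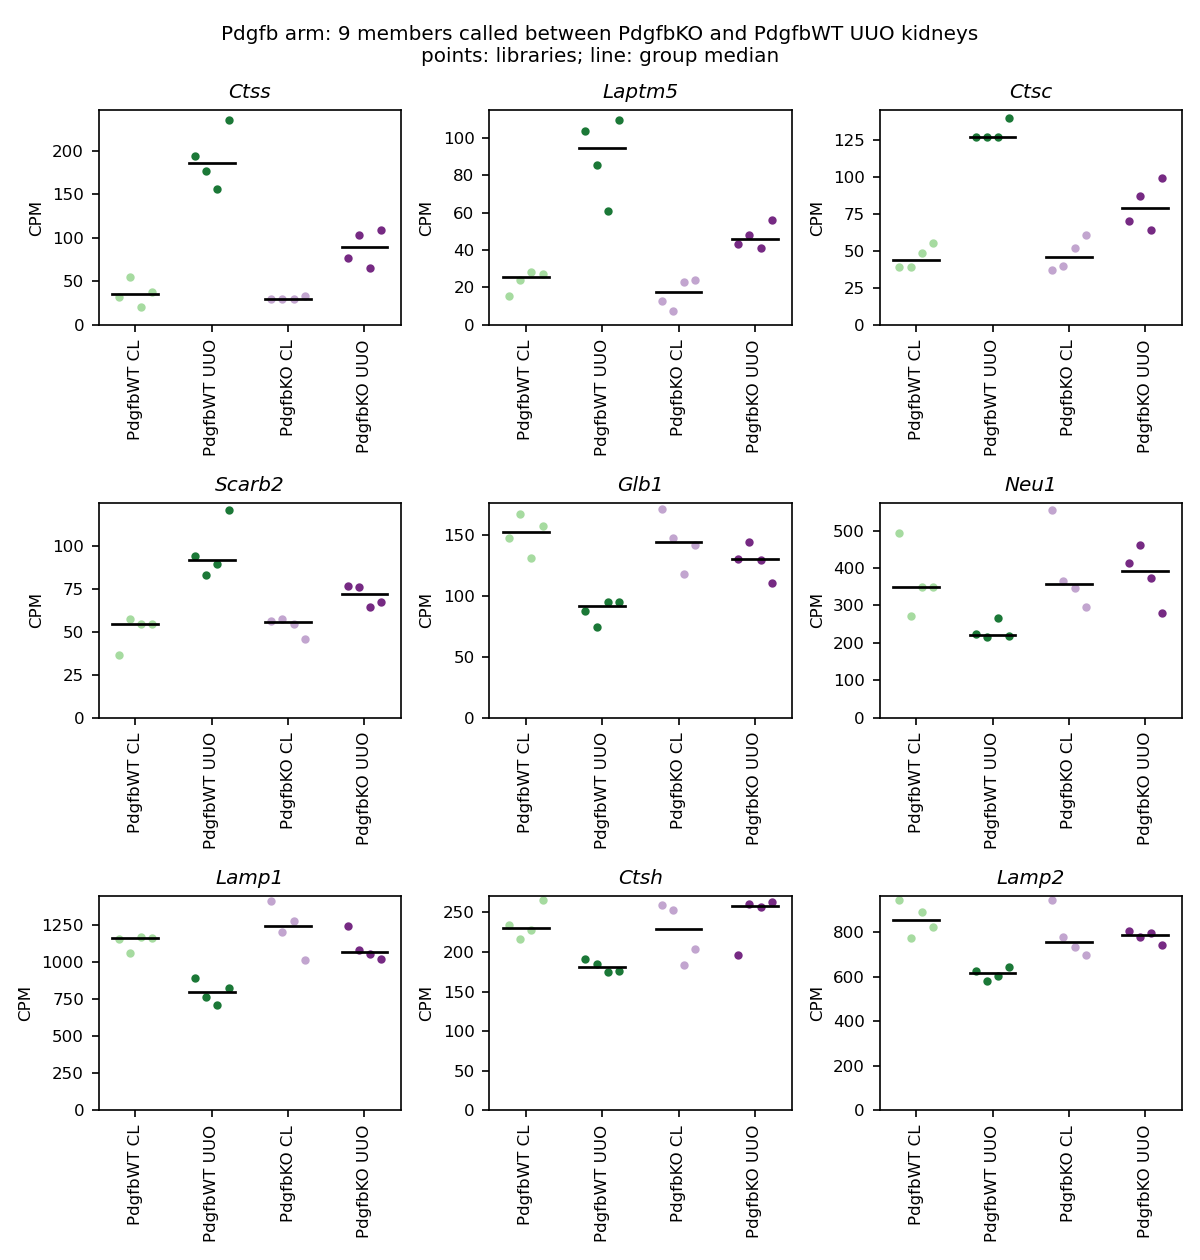
Level in CPM (linear axis from 0) of the 9 members called between PdgfbKO and PdgfbWT UUO kidneys, in the 16 libraries of the Pdgfb arm, with a line at each group median. For Ctss, Laptm5, Ctsc, and Scarb2 the PdgfbWT UUO libraries were highest, and for the other 5 genes the PdgfbWT UUO libraries lay below the PdgfbKO UUO libraries.

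Set beside the PdgfbWT response to UUO, which shares the PdgfbWT UUO libraries with this comparison, the 4 lower members were among the 8 called higher with UUO, and the 5 higher members were among the 6 called lower with UUO. The sixth was Lipa. The shared libraries alone favor opposite signs, so this count is a description. The difference between the responses to UUO, which uses the 4 groups, called no member beside 8.56% of all genes, with 7 members at an unadjusted p under 0.05. DESeq2 called 1 member higher, beside 8.78% of all genes called higher. The smallest adjusted p values of the named members were 0.06214 for Glb1 (0.59), 0.06298 for Ctsc (-0.76), and 0.1049 for Ctss (-0.84). In CL kidneys no member was called by edgeR or DESeq2 between the genotypes, beside 0% of all genes, and none had an unadjusted p under 0.05.

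In the same UUO comparison, 12 of 21 pump subunits were higher in PdgfbKO kidneys and none lower (median 0.46), and with library totals 4 were higher and 1 lower (median 0.18). Atp6v1a differed by 0.56, Atp6v1e1 by 0.66, and Atp6v0a4 by 0.69. Of the other hydrolases 9 of 39 were higher and none lower, among them Arsb (0.85) and Gm2a (0.80), and with library totals 3 were higher and 6 lower, the median turning from 0.12 to -0.15. Of the regulators 5 of 16 were higher, among them Lamtor5 (0.64) and Mtor (0.64), and of the autophagy genes 3 of 16, beside 12.0% of all genes. With library totals 1 regulator was higher and none lower, and no autophagy gene was higher and 1 lower, beside 6.11% and 21.8%. Lrp1 (-0.86) and Tmbim1 (-0.62) were lower. Macrophage markers summed to 829.1 to 1346 CPM in PdgfbWT UUO and 538.1 to 653.9 CPM in PdgfbKO UUO kidneys, without overlap, and 12 of 16 were called lower in PdgfbKO. Proximal tubule markers summed to 4602 to 5969 CPM in PdgfbWT UUO and 9868 to 26250 CPM in PdgfbKO UUO kidneys, also without overlap, and 11 of 13 were called higher. Other lists moved without overlap too, with PdgfbWT UUO before PdgfbKO UUO kidneys. Fibroblast markers summed to 1045 to 1465 against 380.1 to 930.8 CPM, pan-leukocyte markers to 256.3 to 338.0 against 146.8 to 193.0 CPM, and other nephron markers to 2123 to 2459 against 3321 to 4924 CPM. Endothelial markers overlapped, at 163.1 to 222.5 against 112.1 to 163.3 CPM. The part of these cells, of the scaling, of sex, and of the Xist and Y-linked counts in the 4 PdgfbKO UUO libraries was not tested.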

How the data were processed

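Whole-kidney RNA was sequenced in 75 libraries on 1 lane of an Illumina HiSeq. The authors merged 4 wells per sample, removed duplicates by unique molecular identifier, and deposited counts per gene. The submitters' processing notes name STAR 2.7.3a, UMI-tools 1.1.4, featureCounts (Subread 1.4.6-p5), and the build mm10, and the annotation version is not given in the sources used here. Counts were used as deposited, and library totals ranged from 172827 to 2341800.

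Groups were taken from the labels. Each arm was fitted over its 4 groups with edgeR 4.0.16 (R 4.3.3; filterByExpr, TMM, glmQLFit, glmQLFTest), with Benjamini-Hochberg adjustment over all genes tested in the arm and a threshold of 0.05. Standard errors are the size of the log2 change divided by the square root of F. Alternatives were DESeq2 1.42.0, edgeR's exact test (which the authors used), library totals, other count filters, leaving out single libraries, and the form of library name. The scripts were tested on simulated data with 200 changed genes. Promoters came from RefSeq (GRCm38.p6).

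The members and gene lists were chosen with earlier results of these data known. Named in full were the 6 members with the highest and the 6 with the lowest mean log2 change over the IgG, VeptpWT, and PdgfbWT responses, the 6 members with the smallest p between PdgfbKO and PdgfbWT UUO kidneys, Tfeb, and Mcoln1. Of the other lysosomal lists, up to 4 genes each with the lowest p in IgG mice were named. No 2 libraries of the same group agreed within sampling noise (lowest chi-square per degree of freedom 1.41). Libraries of different groups were not compared in this way.

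Same-numbered CL and UUO libraries of ABTAA mice deviated together (correlations 0.387, 0.2, and 0.16 over 3 numbers), so these numbers were taken to pair the samples. In these libraries a fit with the replicate block called 18 members in ABTAA mice, and the fit without it 12, beside 31.4% and 24.3% of all genes.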

Additional observations from a re-analysis of the deposited data

Results flagged for a closer look

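Among the 14 members named in full, 168 sets of values (each member in each of 12 groups of 4 to 8 libraries) were checked for a highest or lowest library standing far from the others, and 14 were found, where chance gives about 1 in 20 such sets. VeptpKO CL replicate 2 stood high for both Ctss (121.9 CPM) and Laptm5 (58.71 CPM), and its summed macrophage markers were 668.4 CPM. IgG UUO replicate 4 was high for Ctss (241.4 CPM), ABTAA CL replicate 4 for Laptm5 (31.42 CPM), and PdgfbWT UUO replicate 4 for Ctsc (140.1 CPM). Gla was high in IgG CL replicate 8 (15.23 CPM) and in ABTAA UUO replicate 7 (24.28 CPM). Scarb2 was low in PdgfbWT CL replicate 1 (36.58 CPM). PdgfbKO UUO replicate 1 was the farthest of its group for Mcoln1 (80.07 CPM) and for Ctsh (196.8 CPM). Lipa was high in VeptpWT UUO replicate 8 (270.6 CPM) and low in PdgfbWT UUO replicate 2 (112.0 CPM). Glb1 was low in ABTAA UUO replicate 5 (87.42 CPM), and Lamp1 was low in PdgfbWT CL replicate 2 (1062 CPM).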

How the results depend on the processing

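No result changed direction past the threshold under any alternative run. In VeptpWT mice the number of members called, 6, became 11 with library totals, 10 with DESeq2, 10 with genes of mean count 20 or more, 17 with the name form as a covariate, and 14 in joined-name libraries alone. The shares of all genes called were 16.1%, 19.8%, 18.5%, 33.9%, and 25.7% in the same order, against 18.4% in the main fit. In VeptpKO mice the number of members called moved from 2 to 6 with library totals, 10 with the covariate, 8 in joined-name libraries, 0 in plain libraries, and 1 without the numbers 3, 4, 7, and 8 (chosen after seeing the data). There 7.14%, 21.5%, 21.3%, 0%, and 0.979% of all genes were called in the same order, against 7.95% in the main fit. Without single libraries the number of members called ranged from 1 to 6 in VeptpKO mice, with 6 without VeptpKO CL replicate 2 and 1 without replicate 1, 3, 4, or 6 of that group. It ranged from 9 to 14 in ABTAA mice, with 9 without ABTAA UUO replicate 6. The Pdgfb difference between responses called 4 members with library totals, 1 with DESeq2, and 1 with the mean count filter, beside 8.63%, 10.6%, and 11.2% of all genes. Without single libraries it called 0 to 5 members, with 5 without PdgfbKO CL replicate 1. Without the libraries with both Xist and Y-linked counts, chosen after seeing the data, the count was 9 in ABTAA and 6 in PdgfbWT mice. The share of members with a promoter match was 14.29% for TCACGTGA against 32.14% for CACGTG. The causes were not tested.

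In the Veptp arm 7 of 8 same-numbered pairs of libraries, the numbers 3, 4, 7, and 8 with opposite Veptp labels among them, had correlated deviations of 0.109 to 0.426, and number 5 had 0.0582. Each was above the median with other numbers, a hint from the data and not the design, and because number 5 was under 0.1 the numbers were not taken to pair these samples. There the replicate block gave 13 members in VeptpWT and 14 in VeptpKO mice, against 14 and 8 without the block in the same libraries, beside 23.2% and 26.6% of all genes with it and 25.7% and 21.3% without. Depth limits Gla and Tfeb most, which were at 0 counts in 4 and 2 libraries.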
